A study of Mus musculus with 2 samples.

Results

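The control regions of 10 imprinted genes were examined in F9 cells: Peg3, Mest, Peg10, Nnat, Gnas, Grb10, Plagl1, Igf2r, Impact and Zrsr1. F9 is a mouse embryonal carcinoma line. Each control region was taken as a fixed window of 55 to 95 kb on GRCm38 around the gene, and every site of both deposited tables inside a window was a member. The Grb10 window, 12000000 to 12060000, held only part of its gene, which spans 11930499 to 12037428. The window rule itself uses no measured value, but the genes were chosen with earlier results of these data known. The windows held 515 of the 1370204 sites listed in at least 1 library, from 20 sites in the Zrsr1 window to 103 in the Igf2r window. There were 2 methylRAD libraries, 1 from undifferentiated F9 cells on gelatin-coated plates and 1 from F9 cells that had been moved to low-attachment dishes with 1 µM retinoic acid, sampled at day 4. Both came from the same line, and the labels name no other genotype or agent. Site counts hold no marker expression, so the labelled cell states were not checked here. The word "untreated" in the description of both libraries was not explained. With 1 library per state there was no replicate, so every test below compares 2 libraries and covers counting error only.

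Genomic imprinting is the expression of a gene from only the maternal or only the paternal chromosome. It is set by control regions whose cytosines are methylated in one parent's germ cells and which keep that methylation on 1 allele through early development, when most other methylation is erased. In all of these genes a control region is known to be methylated on the maternal allele, usually at the promoter of a transcript that is then expressed from the paternal allele. Igf2r and the Nesp promoter of Gnas differ in that their own promoters gain methylation on the paternal allele after fertilisation. The zinc finger protein ZFP57 binds methylated TGCCGC in control regions and recruits TRIM28, which protects their methylation.

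MethylRAD sequences the short fragments that the enzyme FspEI cuts out around methylated cytosines, so a site that is methylated in more of the DNA yields more reads, and fragments come only from methylated sites. The reads do not tell the parental alleles apart. Sites have 1 of 3 motifs: CCGG, which contains a CpG, or CCAGG and CCTGG, which place the methylated cytosine outside CpG. The tables list only sites with at least 5 counts, so an unlisted site had 0 to 4 counts or was not a site in these cells, and it cannot be read as unmethylated. Levels are counts per 1000000 CCGG counts of the library. The undifferentiated library held 16687588 CCGG counts and the differentiated library 15705436, and the median listed CCGG site had 19 and 17 counts. For levels and ratios, a site listed in 1 library only was given 4 counts in the other, and the fold of such a site is a lower bound. Counts given without a level are listed counts, with nothing filled in.

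The sequences of 22 RefSeq promoters with a start inside the windows (GRCm38.p6, 250 bases before to 50 after the start) show which CCGG sites could have been read near the imprinted starts. No entry was matched for Peg10, Sgce, Gnasas1, Impact and some further genes in the windows, such as Peg3os and Gm30189. The 22 promoters held 32 different CCGG sites, and 4 of them (12.5%) were listed, each in both libraries. Over all RefSeq promoters 14.4% of 39736 CCGG sites were listed in at least 1 library, and in promoters with at least 10 CpG the share was 7.81%. The 4 listed sites are shown with 13 bases to each side, on the plus strand of GRCm38, with the CCGG in capitals.
Mest, chr6:30738060-30738089: ccaccagcacatcCCGGtgcttcttctcag
Plagl1, chr10:13090799-13090828: agccttgatttagCCGGggctggggcgttc
Grb10, chr11:12028180-12028209: cagtagatgctccCCGGggagcagaggctt
Igf2r, chr17:12769821-12769850: gaagtgttgcgggCCGGgcacgagcgccag

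The Mest site, at +23 from the start at 30738050, had 31 counts in undifferentiated cells and 23 in differentiated cells. The Plagl1 site, at -20 from its start, had 7 and 23 counts. The Grb10 site, at -225 from the start of a shorter transcript, had 7 and 35 counts. The Igf2r site, at -131, had 6 and 8 counts. The Mest and Igf2r counts were thus close in the 2 libraries, whereas the Plagl1 and Grb10 counts were higher in the differentiated library.

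The Plagl1 and Igf2r promoters also held unlisted CCGG sites, as did promoters with no listed site. The 250 bases before the starts of Plagl1, Igf2r and Zrsr1 are given on the strand of the gene, with every CCGG in capitals, because they show listed and unlisted sites side by side. Zrsr1 stands for the promoters in which no CCGG was listed.
Plagl1, chr10:13090582-13090831, plus strand: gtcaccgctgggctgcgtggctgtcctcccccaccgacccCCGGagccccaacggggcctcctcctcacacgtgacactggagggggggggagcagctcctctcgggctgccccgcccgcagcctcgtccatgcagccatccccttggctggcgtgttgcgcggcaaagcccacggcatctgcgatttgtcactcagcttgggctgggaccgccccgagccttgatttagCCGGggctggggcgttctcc
Igf2r, chr17:12769707-12769956, minus strand: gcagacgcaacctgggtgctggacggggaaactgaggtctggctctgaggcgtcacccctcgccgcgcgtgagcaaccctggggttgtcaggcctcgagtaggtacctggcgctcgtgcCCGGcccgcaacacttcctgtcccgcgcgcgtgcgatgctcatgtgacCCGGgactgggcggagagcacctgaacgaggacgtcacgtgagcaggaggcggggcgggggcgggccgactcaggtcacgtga
Zrsr1, chr11:22971755-22972004, plus strand: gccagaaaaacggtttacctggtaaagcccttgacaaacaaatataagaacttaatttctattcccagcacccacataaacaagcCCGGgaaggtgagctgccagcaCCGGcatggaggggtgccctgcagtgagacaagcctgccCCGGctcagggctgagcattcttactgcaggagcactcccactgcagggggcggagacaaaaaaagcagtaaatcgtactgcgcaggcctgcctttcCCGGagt

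In Plagl1 the first CCGG, at position 13090622, was unlisted and the second was the listed one. In Igf2r the first CCGG was listed and the second, at position 12769786, was unlisted. All 4 CCGG sites of the Zrsr1 stretch were unlisted in both libraries. The same held for the single CCGG of the Nnat promoter, the 6 of the Gnas promoter at 174330006, the 4 of the Grb10 promoter at 12037420 and the single CCGG of the Usp29 promoter, which overlaps that of Peg3. TGCCGC, searched on both strands without regard to overlap with CCGG, occurred in 7 of the 22 promoters (31.8%) and in 11.6% of all 32851 promoters. The sets are not alike in CpG content, with a median of 17 CpG in the 22 and 7 over all promoters, and the motif itself contains a CpG. The 7 belong to Mest (2 overlapping entries), Nnat, Grb10, Plagl1, Hymai (which overlaps Plagl1) and Commd1. A match is a description of these letters and not of binding.

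**Figure D1:**
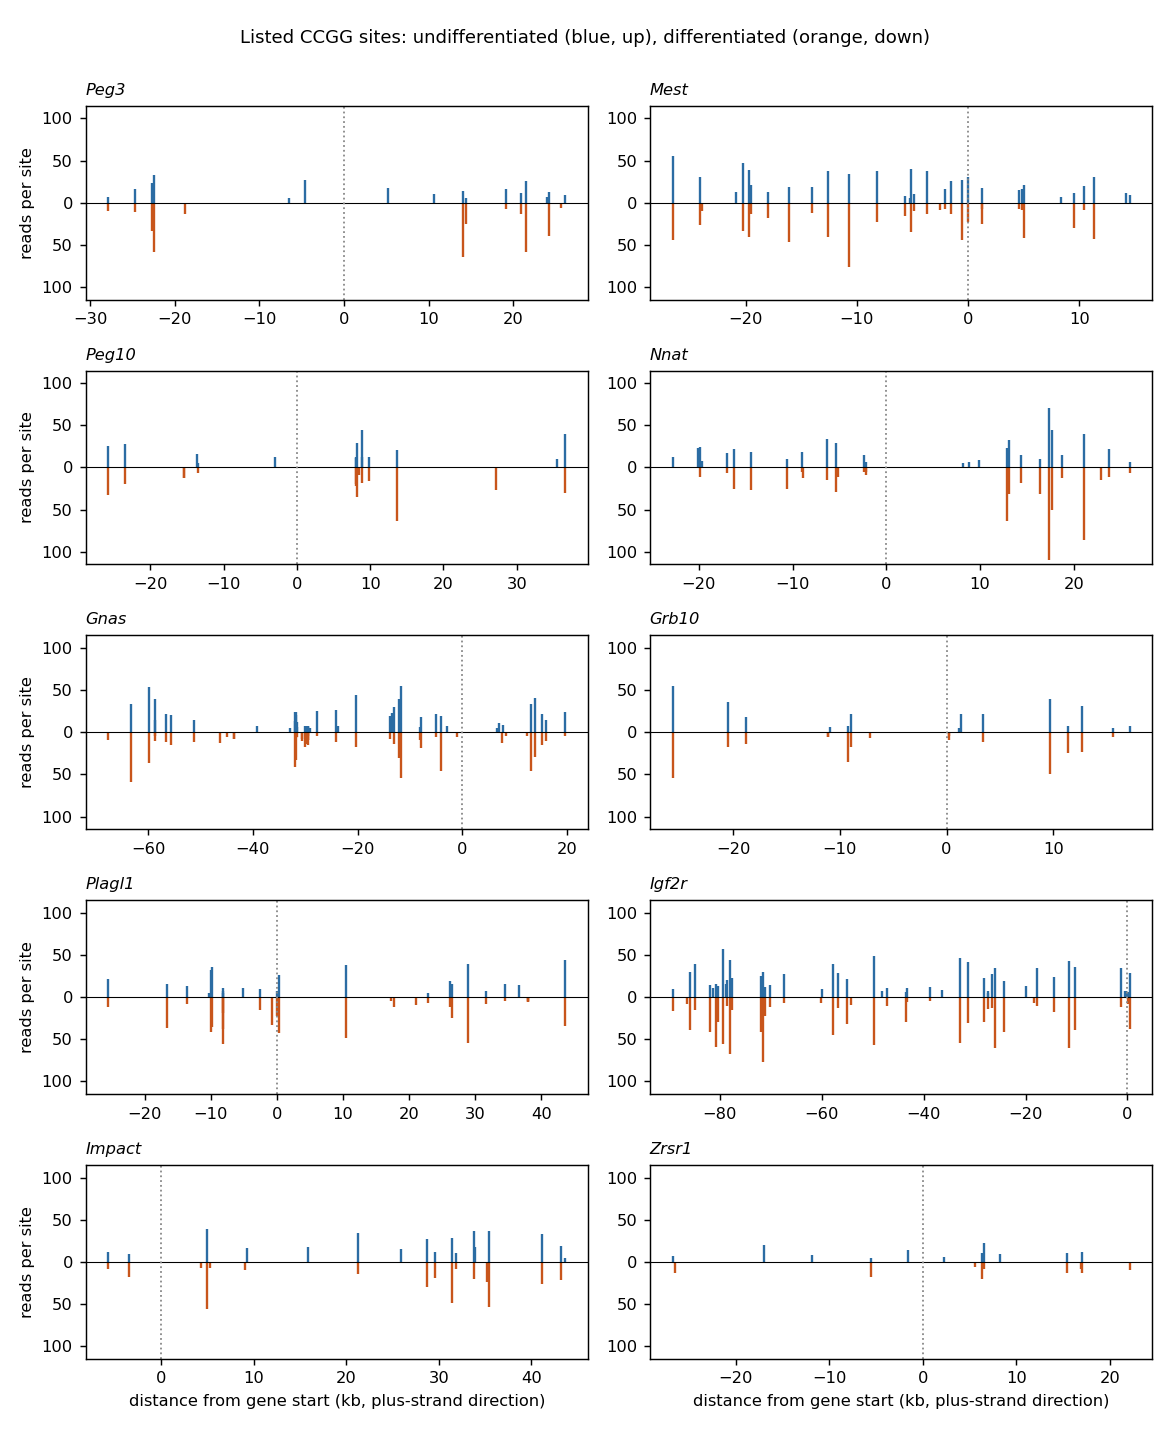
Counts of every listed CCGG site in the 10 windows, undifferentiated upward in blue and differentiated downward in orange, against the distance in kb from the gene's start (dotted line; the first base of the gene model for Peg10 and Impact, and for Gnas the start at 174330006). No listed site lies next to the dotted line of Peg3, Peg10, Nnat, Zrsr1 and Impact, whereas the Mest, Plagl1 and Igf2r starts have listed sites beside them.

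Across the 10 windows 294 CCGG sites were listed, 241 of them in undifferentiated cells and 234 in differentiated cells, with medians of 17 and 15 counts. Of these, 181 were listed in both, a share of 75.1% of those listed before differentiation (69.3% to 80.1%, a 95% Wilson interval) and 77.4% of those listed after it (71.6% to 82.2%). Over the whole tables the shares were 79.9% and 84.9%. Listed CCGG sites were spread at a median of 4.12 per 10 kb over the windows, against 2.33 over 60 kb tiles of the genome with at least 1 listed site. The Mest window had the highest density, 6.18 per 10 kb, and the Zrsr1 window the lowest, 2.73.

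The count of a site was set against all other CCGG counts of its library in a two-sided Fisher's exact test, with Benjamini-Hochberg adjustment over all 763323 CCGG sites that had a summed count of at least 10. Of the 278 member sites tested, 60 had an adjusted p under 0.05, a share of 21.6%. Over all sites tested 23.5% were called, so the share in the imprinted windows was near the background. The called member sites were 38 higher (13.7%; 11.6% of all sites) and 22 lower (7.91%; 11.9% of all sites) in the differentiated library. With the libraries scaled by the median site ratio the split was 29 higher and 30 lower, and with the divisors behind the deposited RPM values 24 and 33. Calls over all sites moved in the same direction: 49.3% of them were higher with CCGG totals, 35.9% with the median ratio and 31.0% with the RPM divisors, against 63.3%, 49.2% and 42.1% of the member calls. The median log2 ratio of the member sites was 0.22, against 0.02 over all sites tested.

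**Figure D2:**
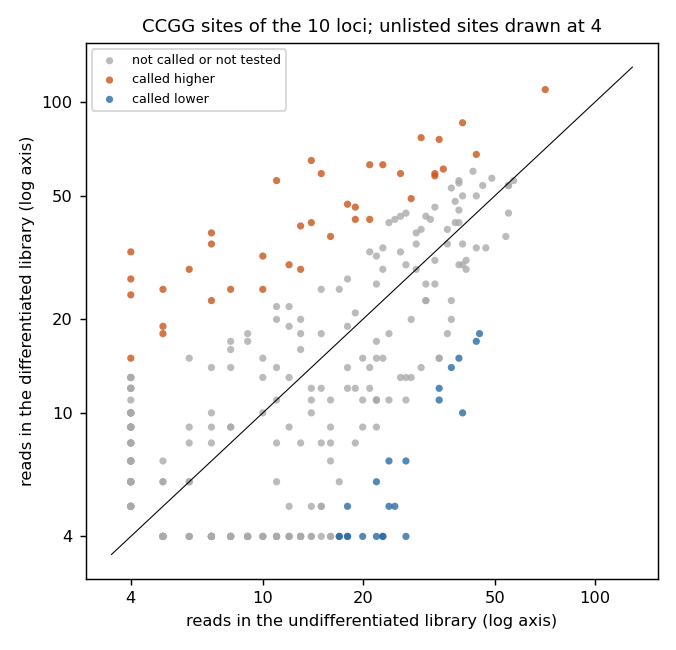
Counts at the 294 CCGG sites in the undifferentiated (x, log axis) and differentiated library (y, log axis), with unlisted sites drawn at 4 and the line of equal counts. The called sites, 38 higher in orange and 22 lower in blue, lie on both sides of the line, and 13 of the points on the axes at 4 counts, 9 lower and 4 higher, were called.

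Window totals differed less than single sites. The 10 totals were tested by the same exact test together with all 60 kb tiles of the genome that had a summed count of at least 50. Totals were called higher in 4 windows, Peg3, Plagl1, Nnat and Igf2r, and lower in none. Among the tiles 33.9% were called, 20.3% higher and 13.7% lower. Without regard to calls, 9 windows had a ratio above 0 and 1, Gnas, a ratio below 0. The median log2 ratio of the 10 windows was 0.20 and that of the tiles 0.04. These directions depend on the scaling. The median CCGG site with at least 10 counts in both libraries had a log2 ratio of 0.16. Relative to that site 5 of the 10 windows were higher and 5 lower. After that rescaling Peg3 and Plagl1 were still called higher, Nnat and Igf2r were no longer called, and Gnas was called lower.

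**Figure D3:**
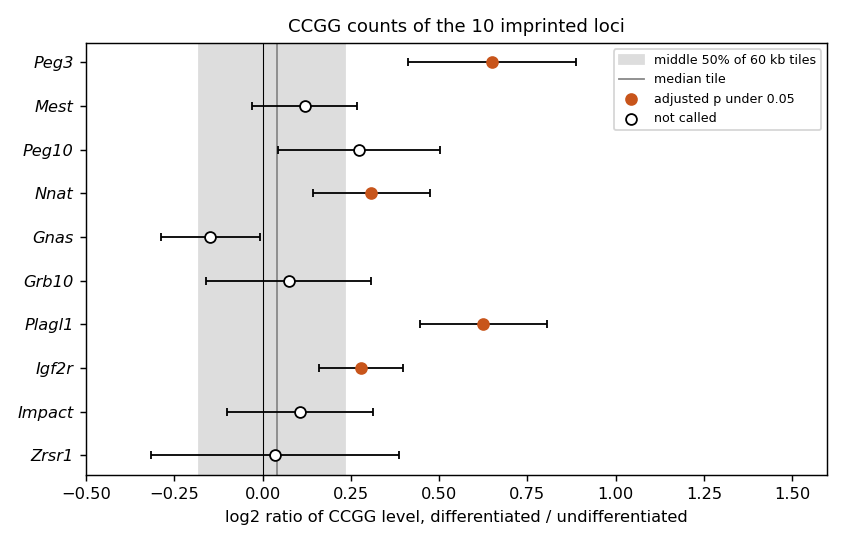
Log2 ratio of the CCGG level, differentiated over undifferentiated, of each window with its 95% exact interval (counting error only), filled where the adjusted p was under 0.05. The grey band holds the middle 50% of 60 kb tiles, and the Peg3 (0.65) and Plagl1 (0.62) values lie to the right of it with their whole intervals.

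Peg3 and Plagl1 encode zinc finger proteins that are expressed from the paternal allele. Loss of Peg3 is known to affect growth and maternal behaviour in mice, and Plagl1 can arrest the cell cycle. In the Peg3 window the listed CCGG counts were 240 in undifferentiated cells and 342 in differentiated cells. With unlisted sites at 4 counts the level went from 14.9 to 23.3 per 1000000, a log2 ratio of 0.65 (95% exact interval 0.41 to 0.89; adjusted p 1.06e-06 by Fisher's exact test). The size depended on the sites and the scaling: it was 0.42 with the RPM divisors and 1.07 over sites listed in both libraries, and it was called in each case. The rise did not extend over the whole window. Of its 18 sites tested, 5 were called higher and 2 lower, and they lay in different places.

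The 4 consecutive listed CCGG sites around the Peg3 start, singled out after their values were seen, were all listed in the undifferentiated library only. Position 6723910 had 6 counts there, position 6725772 had 27, position 6735597 had 17 and position 6741043 had 10. Of the non-CpG sites among them, positions 6725268 and 6725657 were listed in the differentiated library only, with 12 and 5 counts. Position 6725887 had 5 counts in the undifferentiated library only. Positions 6725772 and 6735597 lie 4647 bases to the left and 5178 bases to the right of the start, and both were called lower. Position 6725772, inside Peg3, was at least 6.35-fold lower (adjusted p 0.00070 by Fisher's exact test), the largest fall of the window. Positions 6735597 and 6741043 belong to Usp29, a ubiquitin protease gene transcribed away from Peg3. Farther out in Usp29, 4 of the next 9 listed CCGG sites were called higher and none lower. Position 6744463 had 14 counts in undifferentiated cells and 65 in differentiated cells, and position 6744797 had 5 and 25, the latter the largest rise (5.31-fold, adjusted p 0.0018 by Fisher's exact test). Positions 6751865 (26 and 59 counts) and 6754691 (13 and 40 counts) also rose. The other 5 went both ways without a call. Position 6749529 had 16 and 7 counts, position 6751350 had 11 and 14, positions 6754386 and 6756583 had 7 and 9 in the undifferentiated library only, and position 6756111 had 6 in the differentiated library only. The site with the most counts, position 6707906 near the other end of Peg3, had 33 and 58 counts (log2 ratio 0.90, adjusted p 0.024 by the exact test).

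In the Plagl1 window 6 sites were called higher and none lower of 28 tested, and the counts were 396 and 615. With unlisted sites at 4 counts the level went from 25.9 to 39.9, a log2 ratio of 0.62 (0.45 to 0.81; adjusted p 3.60e-10 by Fisher's exact test). All 5 listed CCGG sites within 1000 bases of the start had higher counts in the differentiated library, and 3 of them were listed in that library only. Position 13090046 was unlisted in the undifferentiated library and had 33 counts in the differentiated one, at least 8.77-fold higher (adjusted p 1.96e-05 by Fisher's exact test) and the highest such fold among the called rises of the 10 windows. The promoter site at 13090812, with its 7 and 23 counts, was called higher. Positions 13091012 and 13091039 were listed in the differentiated library only, with 7 and 10 counts, and position 13091187 had 26 and 43 counts. Together the 5 sites had 33 and 116 listed counts, a log2 ratio of 1.45 (0.95 to 1.98) with unlisted sites at 4 counts. The same ratio for the window was 0.62, and the difference between the 2 was not tested.

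The other rises of the Plagl1 window lay in the long non-coding gene Gm40602, upstream of Plagl1. Positions 13082668, 13082672 and 13082683 lie within 16 bp and can be covered by the same reads, so they are not independent, although they make up 3 of the 6 called sites. They had 5, 11 and 7 counts in the undifferentiated and 19, 56 and 38 in the differentiated library. With 1 site kept of each such run, the log2 ratio of the window was 0.45 in place of 0.62 (adjusted p 4.0e-05 by Fisher's exact test), and with the RPM divisors and all sites it was 0.40. Position 13074226 had 16 and 37 counts. Inside Plagl1 itself no site was called. The site with the most counts there, position 13119730, had 39 and 55 counts (log2 ratio 0.58, interval -0.03 to 1.21).

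Nnat, Mest, Peg10, Zrsr1 and Impact are further genes expressed from the paternal allele. Nnat encodes neuronatin, a small membrane proteolipid, and lies inside an intron of Blcap. The 10307 bases from position 157557925 to position 157568232 held no listed CCGG site in either library, and both the Nnat start and the Blcap start lie in this stretch. On either side of it counts went different ways. Left of it position 157549437 rose from 10 to 25 counts, but the other calls were falls. Position 157539966 had 23 counts in the undifferentiated library only (at least 5.41-fold lower, adjusted p 0.0036 by Fisher's exact test), and position 157551083 had 18 and 5 counts and was called lower. To the right, 5 sites rose. Position 157572975 had 23 and 63 counts, position 157576509 had 10 and 32, and position 157577469 had 71 and 110, the highest counts of any member site in both libraries. Position 157581183 had 40 and 86 counts, and position 157582977 had 15 in the differentiated library only. The window as a whole had 537 and 620 counts and a log2 ratio of 0.31 (0.14 to 0.47; adjusted p 0.0016 by Fisher's exact test).

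Mest encodes an enzyme of the alpha/beta hydrolase fold. Its window had close totals in the 2 libraries, 723 and 731 counts, with a log2 ratio of 0.12 (-0.03 to 0.27). The control region around the starts at 30738050 and 30738053 was listed in both libraries. Within 1000 bases there were 2 listed CCGG sites, with 58 counts together in undifferentiated cells and 67 in differentiated cells (log2 ratio 0.30, interval -0.23 to 0.83). At the upstream start, 30733506, 4 CCGG sites within 1000 bases had 92 and 59 counts, and 1 of them was called lower. That site, position 30734328, had 37 and 14 counts (log2 ratio -1.31, adjusted p 0.018 by Fisher's exact test). The 4 sites called higher lay elsewhere. Position 30721979 had 18 and 47 counts and position 30727344 had 34 and 76, both upstream of Mest. Position 30743035 inside Mest had 21 and 42 counts, and position 30747598, where Mest and Copg2 overlap, had 12 and 30.

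Peg10 derives from a retrotransposon and is needed in the placenta. Its gene model begins 102 bases to the right of the highest position of the gene model of Sgce, the sarcoglycan gene on its other side. That position is a boundary on the map and was taken without regard to the strand of Sgce. No CCGG site was listed within 1000 bases of either boundary, and the nearest ones lay 2954 bases to the left and 8019 bases to the right of the first base of Peg10. The left one, position 4744352, had 13 counts in the undifferentiated library only. The CCGG sites inside Peg10 lay in a cluster of 7 from position 4755325 to position 4757142, with 123 and 120 counts together. One of them, position 4756161, had 45 and 18 counts and was called lower (log2 ratio -1.23, adjusted p 0.011 by Fisher's exact test). Just past the end of Peg10, position 4760927 rose from 21 to 63 counts (3.19-fold, adjusted p 3.90e-05 by the exact test). Position 4774487 had 27 counts in the differentiated library only, at least 7.17-fold higher (adjusted p 0.00030 by the exact test). The window total had a log2 ratio of 0.27 (0.04 to 0.50) and an adjusted p of 0.051 by Fisher's exact test. It was called higher only when unlisted sites were set to 0 (log2 ratio 0.28, adjusted p 0.043 by the exact test), of 8 alternatives with a test. The other 7 ratios ran from 0.047 with the RPM divisors to 0.27, and without the highest site, position 4760927, the ratio was 0.082 (adjusted p 0.66 by the exact test).

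Zrsr1 is a retrogene related to splicing factors that lies in an intron of Commd1. Its window had the fewest counts, 124 and 111, with 11 and 9 listed CCGG sites, of which only 5 were shared. The largest counts in the 2 libraries were 22 and 20. None of the 3 starts, that of Zrsr1 and both of Commd1, had a listed CCGG site within 1000 bases. The nearest sites to the Zrsr1 start, 1523 bases to the left and 2246 bases to the right, had 14 and 6 counts in the undifferentiated library and were unlisted in the other. Position 22954990 was called lower, with 20 counts in the undifferentiated library only, and position 22966494 was called higher, with 5 and 18 counts. The highest summed count was shared by position 22978330, with 11 and 20 counts (log2 ratio 0.95, interval -0.18 to 2.16), and position 22978595, with 22 and 9 (log2 ratio -1.20, adjusted p 0.10 by Fisher's exact test). The window's log2 ratio was 0.04, with an interval from -0.32 to 0.39 that spans both directions.

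Impact encodes an inhibitor of the kinase GCN2. Its window had 371 and 372 counts and a log2 ratio of 0.11 (-0.10 to 0.31). No CCGG site was listed within 1000 bases of the first base of its gene model, and the nearest lay 3479 bases to the left and 4339 to the right. No promoter entry was matched for Impact, so this base was not checked as a start. These distances may therefore not describe the imprinted promoter. In the middle of the gene 4 consecutive listed CCGG sites, singled out after their values were seen, had lower counts in the differentiated library. The non-CpG sites between them went the other way: positions 12969619, 12973639 and 12977615 had 6, 5 and 5 counts in the differentiated library only. Position 12963993 had 17 counts and position 12970575 had 18 in the undifferentiated library only, and both were called lower. Position 12976000 had 34 and 15 counts, and position 12980596 had 15 counts in the undifferentiated library only; neither was called. Nearer the end of Impact the calls were mixed. Position 12989902 had 24 counts in the differentiated library only, at least 6.38-fold higher (adjusted p 0.0011 by Fisher's exact test). Position 12986129 rose from 28 to 49 counts, while position 12988581 had 18 counts in the undifferentiated library only and was called lower. Positions 12959698, 12980596 and 12986129 did not have full-match alignments. With full-match alignments only, the log2 ratio of the window was -0.020.

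Igf2r and Grb10 act against growth. Igf2r encodes the receptor that removes IGF2 and is expressed from the maternal allele in most tissues. Airn, a long non-coding RNA that starts inside Igf2r and runs antisense to it, silences the paternal copy. The window held the most CCGG counts, 1045 and 1176, and with unlisted sites at 4 counts its level went from 63.8 to 77.4, a log2 ratio of 0.28 (0.16 to 0.40; adjusted p 6.11e-05 by Fisher's exact test). Of 51 sites tested, 8 were called higher and 4 lower.

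At the Airn start the nearest listed CCGG site, position 12741589, had 23 and 29 counts. The next, position 12742235, had 5 counts in the undifferentiated library only, and position 12742419 had 7 and 14. None of the 3 was called, and position 12742235 had too few counts to be tested. Farther along, where Airn and Igf2r overlap, position 12743636 rose from 35 to 61 counts and position 12745477 from 19 to 42, while position 12751938 fell from 34 to 11. Around the Igf2r start 5 listed CCGG sites had 56 and 46 counts together, a log2 ratio of 0.14 after filling unlisted sites (-0.42 to 0.69). Position 12770119 carried most of them, with 29 and 38 counts. Positions 12769265, 12769499 and 12769509 had 7 counts each in the undifferentiated library only. The last 2 lie within 16 bp and can be covered by the same reads, so they are not independent. Position 12768342, further inside the gene, fell from 34 to 12 counts.

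Of the 8 rises in the Igf2r window, 4 lay close together toward the end of the gene. From position 12687808 to position 12691742, the densest 4 kb of the window, there were 8 listed CCGG sites with 190 and 264 counts together. Position 12689023 had 15 and 59 counts, the strongest of these (log2 ratio 2.06, adjusted p 5.00e-06 by Fisher's exact test). Position 12698188 had 30 and 77 counts, while position 12684815, nearer the gene's end, fell from 39 to 15. The largest rise by ratio was at position 12726189, from 6 to 29 counts (5.14-fold, adjusted p 0.00083 by the exact test), and the largest fall at position 12702209, from 27 to 7 (log2 ratio -1.86, adjusted p 0.0078). The site with the most counts, position 12690333, had 57 and 56.

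Grb10 encodes an adaptor protein that inhibits insulin and IGF receptor signalling, and it is maternally expressed in most tissues and paternally expressed in neurons. Its window had 285 and 286 counts, a log2 ratio of 0.07 (-0.16 to 0.31). The CCGG site with the most counts, position 12011756, had 55 and 54. At the promoter with 45 CpG around 12037420, 2 sites within 1000 bases were listed in the differentiated library only, with 9 and 5 counts, near the listing minimum. The promoter at 12027971 held the called rise of position 12028193, from 7 to 35 counts (5.31-fold, adjusted p 0.00011 by Fisher's exact test). To the left of that site, positions 12026343 and 12026353 can share reads and had 6 counts each in the differentiated library only. Position 12026487 had 6 in the undifferentiated library only. Outside the gene, position 12048793 in the non-coding gene Gm30423 rose from 8 to 25 counts. Position 12038770, upstream of Grb10, had 22 counts in the undifferentiated library only and was called lower.

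Gnas encodes the stimulatory G protein alpha subunit and, from further promoters, the Nesp and XL proteins and antisense and non-coding transcripts with different parental expression. With CCGG totals as the scale it was the only window with a negative log2 ratio, -0.15 (-0.29 to -0.01; adjusted p 0.089 by Fisher's exact test), from 854 and 725 counts. With the median site ratio as the scale it was called lower, at -0.31 (adjusted p 0.00016 by the exact test), and the Mest, Grb10, Impact and Zrsr1 ratios were then below 0 too. Of 50 sites tested, 7 were called lower and 2 higher. The called falls were spread over the locus. Position 174271313 had 40 and 10 counts, position 174302313 had 25 and 5, position 174309749 had 44 and 17, and position 174324959 had 22 and 6. Position 174316549 had 23 counts in the undifferentiated library only (at least 5.41-fold lower, adjusted p 0.0036 by the exact test), the largest fall. Position 174349649, past the end of Gnas, had 24 and 5 counts. The 2 sites called higher were position 174266709, with 33 and 59 counts, and position 174325934, with 19 and 46.

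One stretch of Gnas stood out by its density. The 4 kb from position 174297006 to position 174300978, which begin 1570 bases to the right of the Gnasas1 gene model, held 17 listed CCGG sites, the most of any 4 kb in the 10 windows and chosen for that. Their counts were low, with medians of 8 and 9 in the 2 libraries and highest counts of 24 and 41. The other 39 sites of the window had medians of 22 and 11. Together the 17 sites had 148 and 180 counts, a log2 ratio of 0.34 (0.04 to 0.65), while the window as a whole had -0.15. One of them, position 174298292, fell from 24 to 7 counts and was called lower, while position 174297977 had 24 and 41 and position 174298165 had 21 and 33, neither called.

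At the Nesp start, 174284320, 2 sites within 1000 bases were listed in the differentiated library only, with 13 and 6 counts. Near the starts at 174327749 and 174327768 a single site had 7 counts in the undifferentiated library only. No CCGG site was listed within 1000 bases of the start at 174330006, whose promoter has 40 CpG.

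Pooled over the 22 starts, 26 CCGG sites lay within 1000 bases, with 311 and 427 listed counts and a log2 ratio of 0.50 (0.29 to 0.71). The 268 sites farther away had a log2 ratio of 0.19 (0.14 to 0.25). Without the 5 Plagl1 sites the ratio near the starts was 0.28 (0.05 to 0.51), and within 2000 bases of the starts it was 0.28 with them. The difference between near and farther sites was not tested. At 8 of the 22 starts no CCGG site was listed within 1000 bases in either library: those of Peg3, Usp29, Nnat, Blcap, Zrsr1, both of Commd1 and the Gnas start at 174330006.

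CCAGG and CCTGG sites numbered 221 in the windows, 118 in undifferentiated cells and 179 in differentiated cells. They took 21.6% of the window counts in undifferentiated cells and 27.7% in differentiated cells, against 18.8% and 26.2% of the whole libraries. The share was higher in the differentiated library in 9 of the 10 windows and lower in Plagl1, where it was 16.6% in undifferentiated cells and differed by -3.62 points. By Fisher's exact test on the counts, adjusted over the windows and all 60 kb tiles, it rose in 4 windows, Gnas, Igf2r, Mest and Impact, while 54.5% of the tiles were called higher. It was called lower in none of the 10, against 2.96% of the tiles. In Gnas it rose from 25.4% to 35.1% (adjusted p 3.57e-06 by Fisher's exact test). In Impact it rose from 24.1% to 34.0%, in Mest from 20.9% to 29.4% and in Igf2r from 21.1% to 29.2%. The Plagl1 difference was not called (adjusted p 0.14 by Fisher's exact test).

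**Figure D4:**
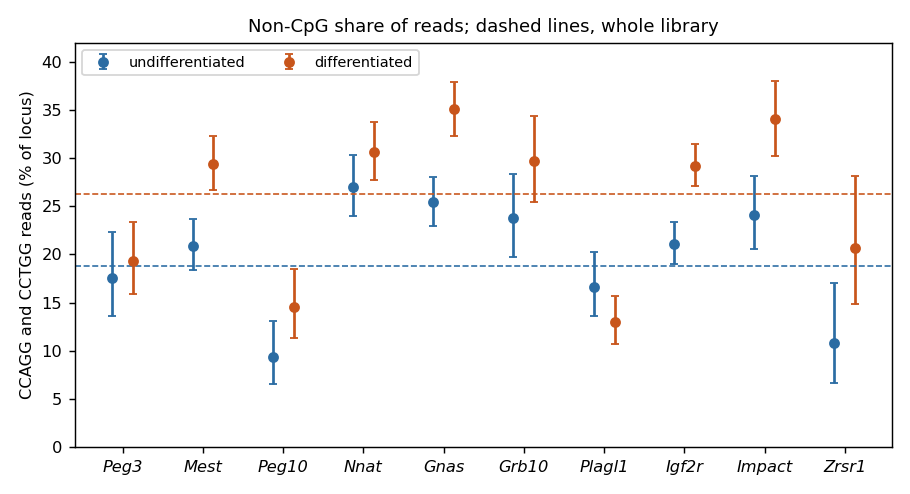
Share of the counts of each window at CCAGG and CCTGG sites, in percent, with 95% Wilson intervals (counting error only), undifferentiated in blue and differentiated in orange. Dashed lines mark the whole libraries at 18.8% and 26.2%, and Plagl1 is the one window whose differentiated point lies below its undifferentiated point.

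The non-CpG site with the highest summed count, position 12011747 in Grb10, stood beside a CCGG site with nearly the same counts. This CCAGG had 55 counts in both libraries, and the CCGG 9 bases away had 55 and 54. Position 12959688 in Impact had 39 and 56 counts, and the CCGG 10 bases away had 39 and 56. Of the 17 non-CpG sites within 16 bp of a listed CCGG site, 13 were listed with it in both libraries. In 12 of these the counts were within 1 of those of the CCGG site in both libraries, and in 7 they were equal. These 17 sites held 27.8% of the non-CpG counts of the windows in undifferentiated cells and 19.9% in differentiated cells. Such sites can share reads with the CCGG site, and which motif was methylated in a shared read cannot be told. The 43 sites at 17 to 100 bp had medians of 7 and 8 counts and summed to 240 and 285, a log2 ratio of 0.34 relative to the CCGG totals (0.08 to 0.59). The 161 sites more than 100 bp from a listed CCGG site had medians of 8 and 7 counts and were listed 75 times in the undifferentiated and 133 times in the differentiated library. Their summed counts were 728 and 1338, a log2 ratio of 0.97 (0.83 to 1.10) on the same scale. For all CCAGG and CCTGG counts of the libraries, at every distance, this ratio was 0.62. The 2 values are not like for like, and no library value for sites more than 100 bp away is given here. All non-CpG counts of the windows, at every distance, were 1341 and 2027. Unlisted sites were not filled in these sums, and the differences between the sets were not tested.

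A list of 13 further imprinted genes gave values of the same kind for 11 with a matched start, read over 30 kb to each side. Their median log2 ratio was 0.07, and 46 of 334 sites tested were called higher and 31 lower, 23.1% in all and near the 23.5% of all CCGG sites, with sites in overlapping windows (Zdbf2 and Gpr1) counted for each gene. In 6 of the 11, Mcts2, Rasgrf1, Zdbf2, Gpr1, Kcnq1ot1 and Snrpn, no CCGG site was listed within 1000 bases of the start. The other 5 went different ways near the start. Counts were higher in differentiated cells for Meg3 (6 sites, 97 and 197) and Nap1l5 (1 site, 9 and 22) and lower for Inpp5f (1 site, 40 and 21). They were close for Slc38a4 (2 sites, 54 and 56) and Cdh15 (3 sites, 40 and 42). None of these sums was tested.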

How the data were processed

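MethylRAD reads of 2 F9 libraries were processed by the submitters, whose processing notes name GRCm38, FastQC 0.11.3 and Bowtie2 2.3.3. Per the file headers, the tables have 1 line per site with its motif, alignment type, count and RPM. Deposited counts are whole numbers of reads, at least 5 in both tables. The RPM column deposited by the authors was treated as a score, because it sums to 9249232 and 8703649. It equals the count times 1000000 divided by 2221852 or 2446243, and these divisors served only as an alternative scaling. The total counts were 20550450 (undifferentiated) and 21291239 (differentiated).

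A listed position was the first base of the motif: 98.3% of 5806 listed CCGG sites inside RefSeq promoter sequences of GRCm38.p6 fell on a CCGG. Another 50 positions carried different motifs in the 2 tables and were dropped. Intervals of log2 ratios are exact conditional 95% intervals. PCR reads are not independent molecules, so intervals and tests cover counting error only. Genes were taken from RefSeq gene extents, without exons or introns. The test of non-CpG shares was adjusted over windows and tiles, not over the 10 windows alone as first planned.

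The members and lists were chosen with earlier results of these data known. Named sites were, per window, the highest summed count, the largest called rise and fall, and the sites nearest the starts; other called sites were added after their values were seen. Tests were also run on simulated data, but the outcome is not given here and nothing is drawn from it. Alternatives concerned scaling, unlisted sites, alignment type, highest sites, minimum counts and distances. Those added after seeing the data concerned sites that can share reads and the Plagl1 starts. Software was Python 3.11.15 with scipy 1.17.1, numpy 2.4.6, pandas 2.3.3 and matplotlib 3.10.9.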

Additional observations from a re-analysis of the deposited data

How the results depend on the processing

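No paired analysis was possible because each state has 1 library. Single counts were low: 65 of the 294 CCGG sites had at least 20 counts in both libraries, and a site missing from one library was called only from 17 counts (undifferentiated) or 15 counts (differentiated) upward. The 4 windows called higher and 0 called lower became 2 and 1 under median-ratio scaling and under the RPM divisors, and 1 was called lower with totals without the 1000 highest sites; the window called lower was Gnas. With unlisted sites as 0, 5 windows were called higher, Peg10 being the one added. Peg3 and Plagl1 kept their calls under all 8 alternatives that gave a test. The Nnat ratio, 0.31, became 0.15 under median-ratio scaling and 0.081 under the RPM divisors. The Igf2r ratio, 0.28, became 0.12 and 0.052, and neither window was called under these scalings. Some windows that were not called changed sign. Median-ratio scaling gave -0.038 for Mest, -0.083 for Grb10, -0.050 for Impact and -0.12 for Zrsr1, and the RPM divisors gave -0.11, -0.15, -0.12 and -0.19. Zrsr1 was -0.0039 without the 1000 highest sites, -0.072 with unlisted sites as 0 and -0.078 without its highest site, but 0.37 over sites listed in both libraries and 0.33 as the site median, against 0.04. Impact was -0.020 with full-match alignments. The site median, from sites summing to at least 20 counts, was -0.14 for Mest, -0.28 for Grb10, 0.088 for Nnat (0.31 for its total) and -0.40 for Gnas (-0.15). The 38 member sites called higher were 24 under the RPM divisors, and the 22 called lower were 43 with unlisted sites as 0, where 42.1% of member sites and 38.8% of all sites were called. The share of undifferentiated sites listed in both libraries, 75.1%, was 62.5% at a minimum of 20 counts. The log2 ratio near the starts, 0.50, was 0.28 within 2000 bases and, in an alternative added after seeing the data, 0.28 without the Plagl1 sites. The non-CpG share, 6.03 points higher in the differentiated library, was 3.85 points higher at a minimum of 10 counts.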
